A study of Mus musculus with 2 samples.

Results

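The genes described here are 10 members of the glucose transport system, found by their symbols among the 18498 rows of a gene table from mouse tongue. They are *Slc2a1*, *Slc2a2*, *Slc2a3*, *Slc2a4*, *Slc2a5*, *Slc2a8* and *Slc2a9*, which encode the facilitative hexose transporters GLUT1 to GLUT5, GLUT8 and GLUT9, then *Slc5a1*, which encodes the sodium-glucose cotransporter SGLT1, and *Abcc8* and *Abcc9*, which encode the sulphonylurea receptors SUR1 and SUR2. All 10 had a row, and each had 1. The table compares the circumvallate papillae (CvP) of the posterior tongue with lingual epithelium that carries no papillae (Epi), both from male C57BL/6J mice aged 12 to 30 weeks on normal chow. RNA of at least 20 mice was pooled for each tissue and made into 1 poly(A) library, so the 2 libraries have no replicate, and no p-value was calculated. Values are RPKM (reads per kilobase of exon model and per 1000000 mapped reads). Intervals are 95% exact intervals from estimated reads, and they cover counting error only. Both samples are bulk tissue, in which fewer cells of a type and less RNA per cell cannot be told apart. For its RT-PCR, the paper states that the CvP tissue also contained epithelium from around the taste buds. The CvP is therefore not read here as taste buds alone.

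Glucose enters cells by 2 kinds of carrier. GLUT proteins let hexoses pass down their gradient, whereas SGLT1 moves glucose together with sodium and draws on the gradient kept by the sodium pump. In the pancreatic beta cell, glucose taken up and phosphorylated raises ATP, which closes the ATP-sensitive potassium (KATP) channel, built from a sulphonylurea receptor and a Kir6 pore. GLUTs, SGLT1 and KATP subunits have been described in taste cells that carry the sweet receptor subunit *Tas1r3*, as a route for sugar that does not need the receptor.

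The most abundant members in both libraries were *Slc5a1* and *Slc2a1*, and short stretches of their promoters are shown for orientation. They come from the RefSeq promoter table (GRCm38.p6), in which *Slc2a2*, *Slc2a5*, *Slc2a8*, *Slc2a9* and *Abcc9* also had an entry and were searched in the same way. Capitals mark ACGTG, the core letters of hypoxia response elements, in *Slc2a1* (chr4:119108697-119108726, plus strand, 48 to 19 bases before the start), and CACGTG, the palindromic E-box, in *Slc5a1* (chr5:33104064-33104093, plus strand, 155 to 126 bases before the start).
*Slc2a1*: gtcccgccccggACGTGctccccaggcccc
*Slc5a1*: ccttttctgcctCACGTGggactccgtggc
Of the 32851 promoters in the table, 19.6% hold ACGTG and 7.15% hold CACGTG on either strand. These shares are for whole promoter entries, which are longer than the 30 bases shown. CACGTG contains ACGTG, and neither was found in the other promoters searched. A match describes these letters and is not a measured binding site.

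The libraries held about 28375281 (CvP) and 27908511 (Epi) mapped reads, read from the steps between the lowest RPKM values. Over the 10363 rows at RPKM 1 or more in each library, the CvP/Epi ratio had a median of 1.31 (log2 0.39), so that a ratio between 1 and 1.31 was below the middle of the table. Of the 12549 rows that reached RPKM 1 somewhere, that is in the CvP, the Epi or both, 28.2% had a CvP/Epi ratio above 2 and 3.75% one below 1/2. These are 3545 and 471 rows, or 88.3% in the direction of the CvP, and after division by the median ratio they were 2370 and 871 (73.1%). The labels of both tissues were checked against marker genes. The taste genes *Gnat3*, *Krt8* and *Krt18* had CvP RPKM values of 127, 113 and 161 and Epi values of 0.03, 0.36 and 0.62, and of the 13 listed taste genes 11 were more than 2-fold higher in the CvP, whereas *Slc1a3* was lower there (1.04 and 3.82) and *Itpr3* lay between (30.1 and 21.9). The keratin genes *Krt13* and *Krt4* had 17549 and 11801 in the CvP against 47815 and 22406 in the Epi. Of the 10 keratinized epithelium genes 7 were lower in the CvP, 6 of them past 2-fold, and 3 were higher, *Krt5* (1506 and 1271), *Ivl* (23.9 and 20.8) and *Dsg3* (209.7 and 89.0).

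**Figure D1:**
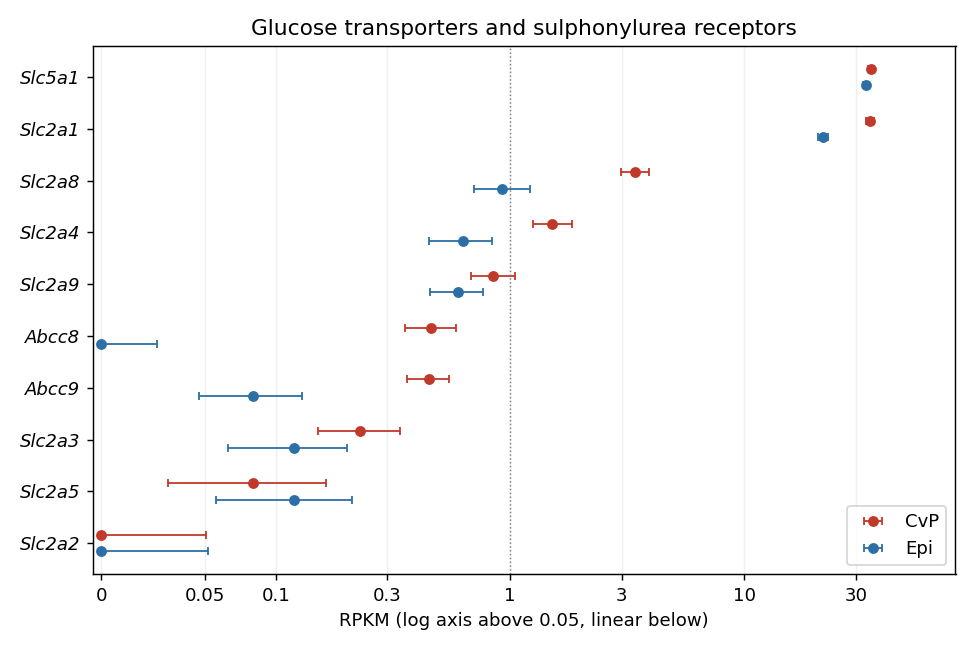
RPKM of the 10 genes in the CvP (red) and the Epi (blue), with 95% counting intervals as bars, on an axis that is logarithmic above 0.05 and linear below. *Slc5a1* and *Slc2a1* lie above 20 in both libraries, *Slc2a8* and *Slc2a4* reach 1 in the CvP only, and *Abcc8* is listed at 0 in the Epi.

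*Slc5a1* encodes SGLT1, the carrier that takes up glucose and galactose across the intestinal brush border. It was measured at RPKM 34.93 in the papillae against 33.26 in the Epi. This is about 4070 and 3811 reads if the length of its longest transcript is used, or 9517 and 8913 by the listed length. The ratio was 1.05 (interval 1.00 to 1.10), and the difference between the tissues was 1.67 RPKM. *Slc5a1* thus stood at nearly the same level in papilla and papilla-free epithelium, as number 1549 of all rows in the CvP and number 1465 in the Epi. Divided by the median ratio of the table, its ratio was 0.80, on the other side of 1. Among the 2336 rows within 2-fold of its mean level the median ratio was 1.10, below that of the table, and 44.7% had a lower ratio than *Slc5a1*. Its position is chromosome 5, plus strand, 33446868 to 33505348 (NCBI37/mm9), and its longest coding transcript in GENCODE M1 has 15 exons and 4106 bases, of which 1995 are coding.

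*Slc2a1* encodes GLUT1, the transporter of basal glucose supply in most cells, among them basal keratinocytes and red blood cells. Its level was RPKM 34.66 in the papillae against 21.83 in the Epi. This is about 2564 and 1588 reads by the transcript length, or 10259 and 6355 by the listed length. The ratio was 1.59 (1.49 to 1.69), above that of *Slc5a1*, and the intervals of the 2 genes did not overlap. Divided by the median ratio of the table it was 1.21. At its level of expression ratios lie closer to 1, with a median of 1.14 over 2826 rows within 2-fold of it, and 83.7% of these rows had a lower ratio than *Slc2a1*. Its position is chromosome 4, plus strand, 118781350 to 118809934, with 10 exons and 2607 bases in its longest coding transcript. Of its exon bases, 105 are shared with *Gm12868* on the opposite strand. Since no source says that strand was used in counting, the reads of both genes could be mixed.

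The order of these 2 genes within a tissue rests on the length by which the reads are divided. As deposited, *Slc2a1* stood at 0.992 times the RPKM of *Slc5a1* in the CvP, where the intervals overlap, and at 0.656 times in the Epi, where they do not. The table lists 10.431 kb for *Slc2a1* and 9.602 kb for *Slc5a1*, which is 4.0 and 2.34 times the longest coding transcript. If all reads of these longer models fell within the transcript, the levels per kilobase of transcript would be 139 and 81.7 in the CvP and 87.3 and 77.8 in the Epi, with *Slc2a1* the higher in both. The ratio between tissues of 1 gene does not depend on this length.

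*Slc2a8* encodes GLUT8, a transporter held mostly in intracellular membranes. It stood at RPKM 3.42 in the papillae against 0.93 in the Epi. This is about 205 and 55 reads by the transcript length, or 310 and 83 by the listed length. The ratio of 3.68 (2.71 to 5.03) was the highest among the 4 members that reached RPKM 1 in a library. It exceeded that of 83.7% of the 3063 rows within 2-fold of its level, whose median ratio was 1.85. *Slc2a8* is on chromosome 2, minus strand, 32828509 to 32837576.

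*Slc2a4* encodes GLUT4, the insulin-responsive transporter of muscle and fat. It was found at RPKM 1.52 in the papillae against 0.63 in the Epi. This is about 109 and 44 reads by the transcript length, or 122 and 50 by the listed length. The ratio was 2.41 (1.70 to 3.54), an interval that includes 2, and 57.7% of the 2478 rows within 2-fold of its level had a lower one. All 9 of the 11 listed skeletal muscle genes that reached an RPKM of 1 were more than 2-fold higher in the Epi. Their list summed to RPKM 7.91 in the papillae against 71.0. Of the 7 adipocyte genes, 5 were at 0 in the CvP, including *Adipoq*, *Plin1*, *Cfd* and *Cidec*, and *Lep* had 0.04 against 0 in the Epi. The list summed to 0.21 against 3.44 in the Epi, most of it *Fabp4* (0.17 against 3.24). The part of muscle and fat cells in the value of *Slc2a4* was not tested. *Slc2a4* is on chromosome 11, minus strand, 69755788 to 69761692.

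Of the 10 members, 4 reached RPKM 1 in a library, as did 67.8% of all rows. All 4 were higher in the CvP, a direction shared by 78.1% of the rows past this filter, although *Slc5a1* turned when ratios were divided by the median. With a threshold of 2-fold, *Slc2a4* and *Slc2a8* were the 2 of these 4 members that passed in the direction of the CvP, beside 28.2% of all rows, and 0 passed in the direction of the Epi, beside 3.75%. Both genes reached RPKM 1 through the CvP alone, where they are high, so nothing is read from this count or from the median log2 ratio of the 4 members, 0.91 beside 0.50 for all rows past the same filter. Without the filter the median was 0.62 over the 10 members and 0.49 over all rows, with a pseudocount of 0.1. None of the 10 members had a CvP RPKM above 10 together with a CvP/Epi ratio above 3, as 2.35% of all rows did. *Slc2a1* and *Slc5a1* passed the first of these thresholds and *Slc2a8*, *Abcc8* and *Abcc9* the second. Among rows past the filter, to which neither *Abcc* gene belongs, 15.9% had a ratio above 3.

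**Figure D2:**
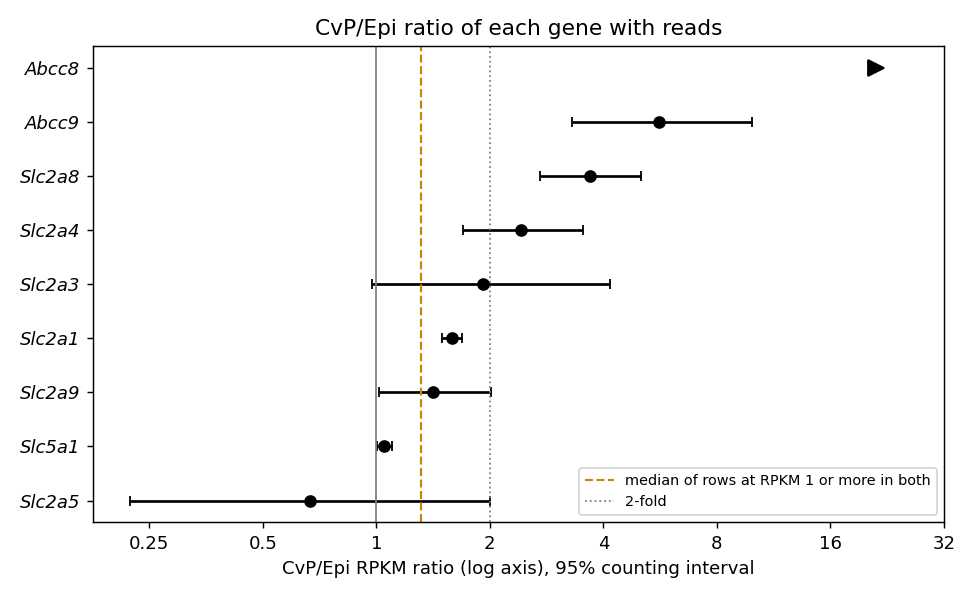
CvP/Epi RPKM ratio of the 9 genes with reads, on a logarithmic axis, with 95% counting intervals. The dashed line is the median ratio of the table, 1.31, the dotted line 2-fold, and the triangle of *Abcc8* a lower bound of 21.2. The interval of *Slc5a1* lies below the dashed line and those of *Slc2a1*, *Slc2a4*, *Slc2a8* and *Abcc9* above it.

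The other GLUT genes among the members were low in both tissues. *Slc2a9*, whose product carries urate, was at RPKM 0.85 in the papillae against 0.60 in the Epi, a ratio of 1.42 (1.01 to 2.02). This is about 87 and 60 reads by the transcript length, or 110 and 76 by the listed length. *Slc2a3*, the high-affinity transporter of neurons and of many blood cells, had 0.23 and 0.12, from about 26 and 13 reads. The ratio was 1.92 (0.975 to 4.17). *Slc2a5*, the fructose transporter, had 0.08 in the CvP and 0.12 in the Epi, from about 7 and 10 reads. Its ratio was 0.667 (0.222 to 2.0). For neither gene did the depth allow a difference to be detected. *Slc2a2*, the low-affinity transporter of liver, intestine and beta cells, was listed at 0 in both libraries. A floor of 3 reads corresponds here to RPKM 0.0412 (CvP) and 0.0419 (Epi).

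*Slc2a9* lies on chromosome 5 (38740512 to 38893391), *Slc2a3* on chromosome 6 (122677827 to 122692763), *Slc2a5* on chromosome 4 (149493453 to 149518277) and *Slc2a2* on chromosome 3 (28596825 to 28627282). In rows of such low level, ratios above 2 were common. The median ratio within 2-fold of the level of *Slc2a9* was 2.20, and 26.8% of those rows had a lower ratio than this gene. For *Slc2a5* it was 3.0, with 14.9% lower. *Slc2a3* may be read beside the immune markers, since white blood cells use GLUT3. All 10 of the 12 listed immune genes that reached an RPKM of 1 were more than 2-fold higher in the papillae, their list summing to RPKM 210 against 10.6, and their part in the value of *Slc2a3* was not tested.

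*Abcc8* and *Abcc9* are the regulatory subunits of KATP channels. *Abcc8*, the SUR1 gene, was at RPKM 0.46 in the papillae against 0 in the Epi, from about 65 reads against 0. Against a floor of 3 reads in the Epi library it was at least 21.2-fold higher in the CvP, and the 95% counting interval of the ratio began at 16.8. *Abcc9*, the SUR2 gene, had 0.45 and 0.08, from about 96 and 17 reads, a ratio of 5.63 (3.29 to 9.93). Both genes thus had about the same CvP level, with overlapping intervals, and they differed in the Epi, where the interval of *Abcc9* ran from 0.0471 to 0.129 and the floor of *Abcc8* was 0.0217. Of the 915 rows with a CvP RPKM from 0.4 to 0.7, a range chosen after the values were seen, 11.8% were at 0 in the Epi and 60.5% had a ratio above 2.

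The pore genes were read beside them. *Kcnj11*, which encodes Kir6.2, the pore that pairs with SUR1 in beta cells, was at RPKM 0.64 in the papillae against 0. With about 56 reads against 0 and the same floor of 3 reads, it was at least 18.3-fold higher in the CvP, with an interval that began at 14.4. *Kcnj8*, which encodes Kir6.1, had 0.02 in both libraries, about 1 read in each. Of the 4 KATP genes, *Abcc8* and *Kcnj11* were therefore the pair with reads in the CvP and none in the Epi, and *Abcc9* had reads in both where *Kcnj8* was at the floor. *Kcnj11* (chromosome 7, 53352493 to 53356134) and *Abcc8* (chromosome 7, 53359893 to 53435403) are neighbours on the minus strand with 3758 bases between them, and *Abcc9* (chromosome 6, 142536382 to 142650794) lies 16505 bases from *Kcnj8* on the same strand. Reads in the papillae with 0 in the Epi were also found for 3 of the 13 taste genes (*Pkd2l1* at RPKM 16.8, *Snap25* at 11.1 and *Ddc* at 7.59) and for 3 of the 9 nerve and glia genes (*Uchl1* at 15.0, *Nefl* at 2.32 and *Nefm* at 0.05). Their part in the values of *Abcc8* and *Kcnj11* was not tested. None of these 4 KATP genes shares exon bases with another gene in GENCODE M1. SUR2 and Kir6.1 are known from pericytes and smooth muscle. The 8 genes listed for mural cells summed to RPKM 27.9 against 24.3, of which *Notch3* gave 24.5 and 18.3. Of the 4 that reached an RPKM of 1, 2 were higher in the CvP, *Notch3* and *Tagln* (1.75 and 1.22), and 2 lower, *Des* (0.12 and 2.25) and *Cspg4* (1.05 and 1.74). Among the other four, *Rgs5* was at 0 (CvP) and 0.17 (Epi), *Pdgfrb* at 0.01 and 0.04, *Myh11* at 0.02 and 0.11, and *Acta2* at 0.39 and 0.51. Their part in the value of *Abcc9* was not tested.

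**Figure D3:**
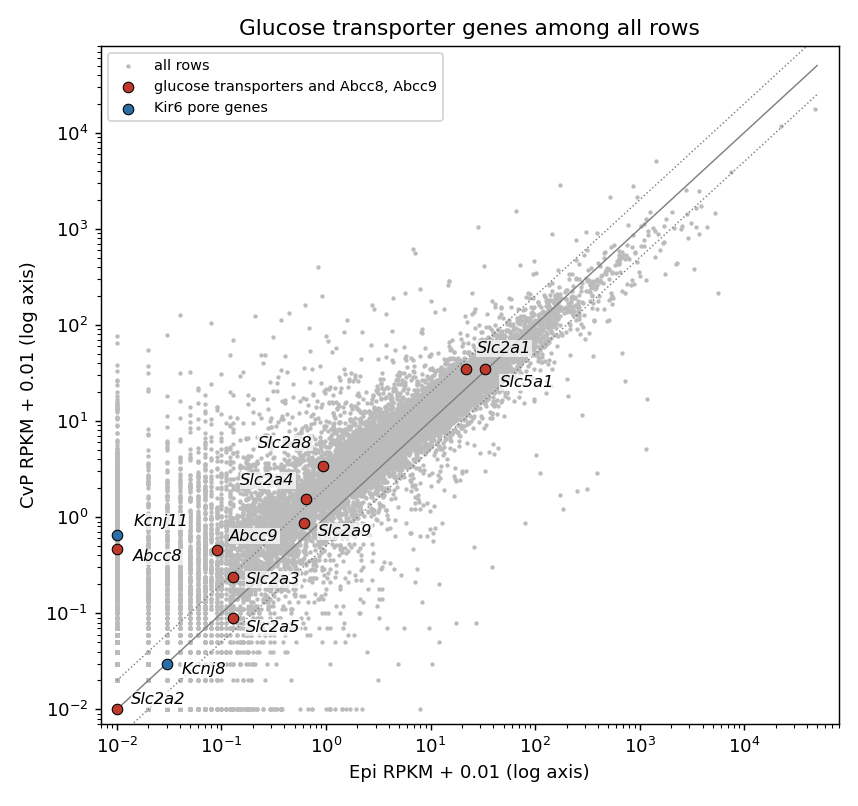
CvP against Epi RPKM of all 18498 rows (grey), both with 0.01 added and on logarithmic axes, with the 10 genes in red and the Kir6 pore genes in blue. The solid line marks equal values and the dotted lines 2-fold. *Abcc8* and *Kcnj11* stand on the left edge, where the Epi RPKM is 0, and *Slc5a1* lies close to the solid line.

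Ordered by level, the CvP had *Slc5a1* and *Slc2a1* first, whose intervals overlap, followed by *Slc2a8* (2.97 to 3.93), *Slc2a4* (1.25 to 1.84) and *Slc2a9* (0.682 to 1.05), which were apart from each other. *Abcc8* and *Abcc9* came next and could not be told apart, and below them were *Slc2a3* (0.151 to 0.339) and *Slc2a5* (0.0320 to 0.164), whose intervals overlap. In the Epi *Slc5a1* (32.2 to 34.3) stood above *Slc2a1* (20.8 to 22.9). *Slc2a8* (0.704 to 1.22), *Slc2a4* (0.454 to 0.839) and *Slc2a9* (0.455 to 0.768) formed a group in which neighbours overlapped, as did *Slc2a3*, *Slc2a5* and *Abcc9*. The spacing of the members was therefore wide. *Slc5a1* had 10.2 times the RPKM of *Slc2a8* in the CvP and 35.8 times in the Epi, or 15.8 and 55.2 times per kilobase of transcript.

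Of the 5 other *Slc2a* genes, 4 had a row and 0 reached an RPKM of 1. *Slc2a12*, which encodes GLUT12, was the most abundant, at 0.73 against 0.97 in the Epi, a ratio of 0.753 (0.553 to 1.02). *Slc2a13*, the gene of a proton-coupled myo-inositol transporter, had 0.26 and 0.03, from about 48 and 5 reads, a ratio of 8.67 (3.78 to 30.4). *Slc2a6* had 0.23 and 0.02, and *Slc2a10* had 0.01 in both. Among the glucose transporters of this family, *Slc2a1* was thus the one with an RPKM above 10 in either tissue. *Slc2a8* came next in the CvP, and in the Epi *Slc2a12* and *Slc2a8* (0.97 and 0.93) were close.

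Of the 12 other *Slc5a* genes, 9 had a row and 5 reached an RPKM of 1. *Slc5a9*, which encodes the mannose and glucose carrier SGLT4, was close to *Slc5a1*, at RPKM 28.44 against 21.87 in the Epi, a ratio of 1.30 (1.24 to 1.37). Its listed length is 4.04 times its longest transcript, so its rank beside *Slc5a1* is also uncertain. *Slc5a8*, a sodium-coupled carrier of lactate and short-chain fatty acids, had 9.87 and 2.11, a ratio of 4.68 (4.14 to 5.31). *Slc5a3*, the sodium-myo-inositol carrier, had 2.12 and 0.78, a ratio of 2.72 (2.33 to 3.16). Of the 5 genes at an RPKM of 1, these were the 2 past 2-fold, both in the direction of the CvP.

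*Slc5a10*, a carrier of mannose and fructose, was lower in the CvP, at 1.74 against 2.60, a ratio of 0.669 (0.523 to 0.859). *Slc5a6*, the multivitamin carrier, had a ratio of 1.46 (1.22 to 1.76). *Slc5a2*, the renal glucose carrier SGLT2, was at 0.73 against 0.35 in the Epi, a ratio of 2.09 (1.24 to 3.66). *Slc5a4a*, *Slc5a5* and *Slc5a11* had an RPKM of 0.16 or less in both tissues. The median log2 ratio of the 5 genes at an RPKM of 1 was 0.53, near the 0.50 of all rows.

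**Figure D4:**
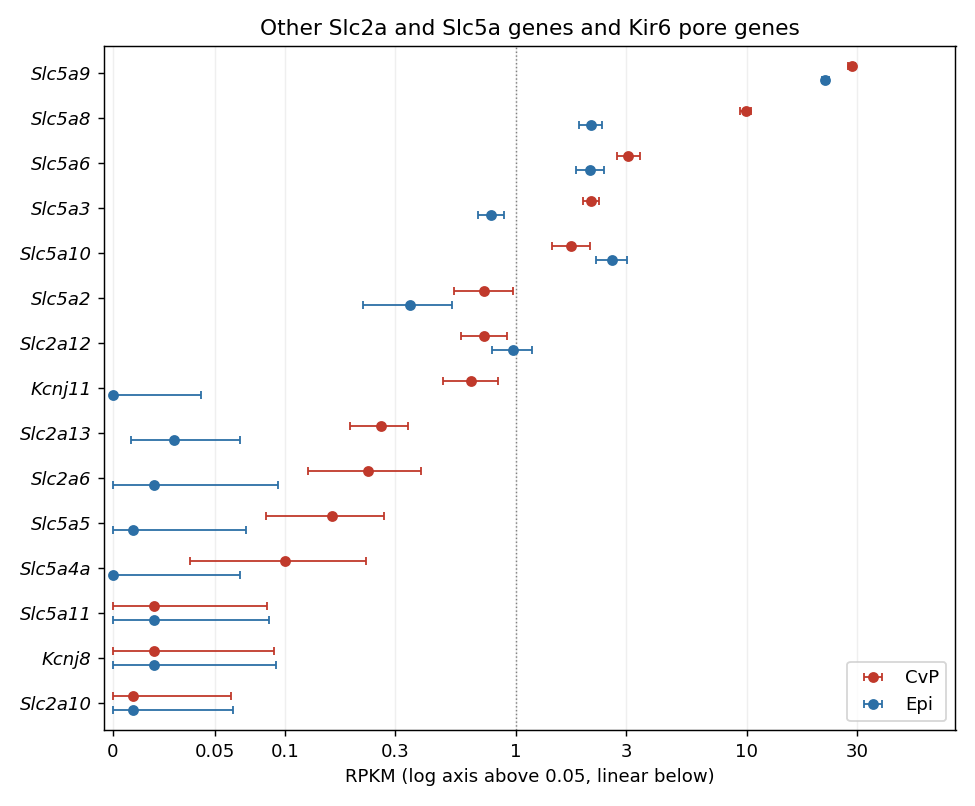
RPKM of the other *Slc2a* and *Slc5a* genes and of the Kir6 pore genes with a row, in the CvP (red) and the Epi (blue), with 95% counting intervals, on an axis that is logarithmic above 0.05 and linear below. *Slc5a9* is the one gene above 20 in both tissues, and *Kcnj11* is listed at 0 in the Epi.

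Downstream of uptake, the hexokinases that trap glucose were represented by *Hk1* and *Hk2*. *Hk1* was at RPKM 54.4 against 47.9 in the Epi, a ratio of 1.13, and *Hk2* had 18.95 and 17.57, a ratio of 1.08. *Khk*, the fructose kinase, had a ratio of 2.42 (1.72 to 3.48), and *G6pc3*, a widely expressed glucose-6-phosphatase, one of 3.24 (2.74 to 3.84) at 13.8 and 4.25.

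The glycolytic enzymes were split between the tissues. Of the 18 listed, 17 had a row and 15 reached an RPKM of 1, of which 8 had the higher value in the papillae and 7 outside them. *Aldoa* (269 and 333), *Ldha* (195 and 239) and *Pkm2* (229 and 198) were the most abundant, with ratios of 0.808, 0.816 and 1.16. *Ldhb* was the 1 gene of these 15 past 2-fold, with a ratio of 2.35 (2.03 to 2.72). *Eno2*, the neuronal enolase gene, lay just below the filter at RPKM 0.99 against 0.04 in the Epi, a ratio of 24.8 (7.99 to 120.3). The median log2 ratio was 0.02, below that of all rows, and it was -0.37 after division by the median ratio of the table.

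Genes known to act on GLUT or SGLT proteins had a median log2 ratio of 0.51 over 11 genes, close to that of all rows. *Txnip*, an arrestin-like protein that removes GLUT1 from the cell surface and whose gene responds to glucose, was at RPKM 101 against 29.0 in the Epi, a ratio of 3.49 (3.33 to 3.65). *Pdzk1ip1*, a partner of SGLT2, was abundant in both tissues (186 and 196), and so was the kinase gene *Sgk1* (37.3 and 44.9), with a ratio of 0.831 (0.793 to 0.871). *Tbc1d1* (6.04 and 1.19) and *Insr*, the insulin receptor gene (9.15 and 3.75), were the other genes past 2-fold. They act on the traffic of GLUT4 and were named after their values were seen.

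The sodium pump supplies the gradient used by SGLT1. *Atp1b1*, a beta subunit gene, was at RPKM 35.1 against 0.73 in the Epi, a ratio of 48.1 (36.5 to 65.6), whereas *Atp1b3*, another beta subunit gene, had 263 and 137, a ratio of 1.93. The regulator gene *Fxyd3* had 214 and 86.4. The ratio of *Slc5a1*, 1.05, was below those of these 3 genes.

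The sweet receptor genes *Tas1r2* and *Tas1r3* had CvP RPKM values of 20.3 and 25.3 and Epi values of 0.01 and 0.70, and *Plcb2* and *Trpm5* of the same cascade had 70.0 and 37.8 in the CvP. The ratio of *Tas1r3* was 36.2 (28.4 to 46.5), an interval above those of all members with reads in both tissues. The disaccharidase genes were near the limit of detection, with *Lct* at 0.03 and 0.01 and *Mgam* at 0.02 and 0.

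**Figure D5:**
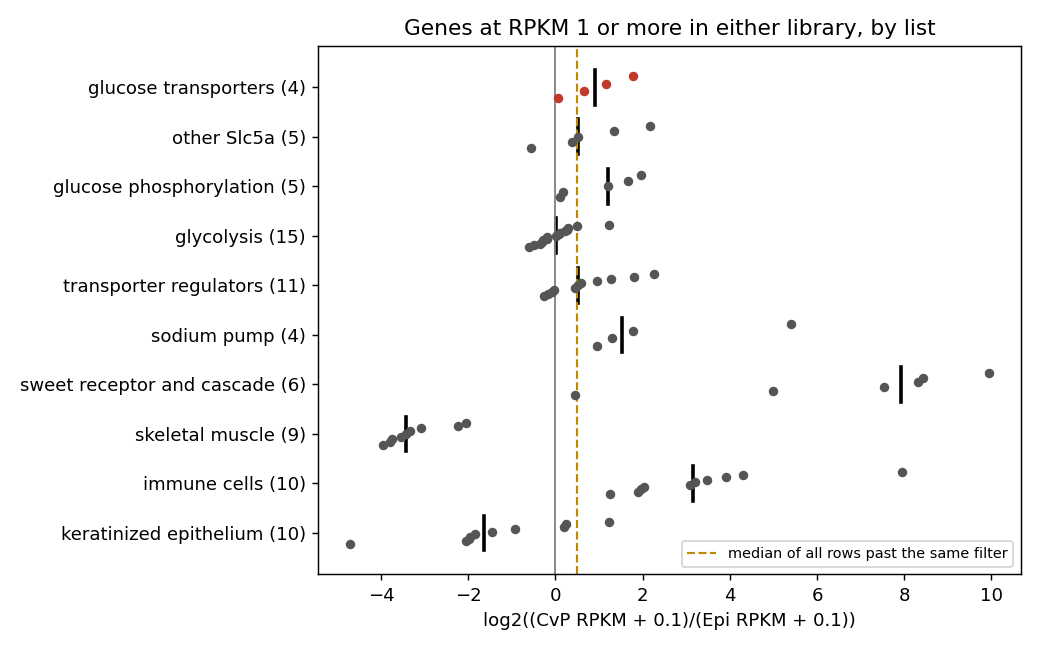
log2 CvP/Epi ratio, with a pseudocount of 0.1, of the genes that reached RPKM 1 in a library, by list, with the number of genes in parentheses. Points are genes, black bars the medians of the lists, and the dashed line the median of all rows past the same filter, 0.50. The glucose transporters lie between 0.07 and 1.77, within the range of the regulators and below the sweet receptor and cascade genes other than *Itpr3*.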

How the data were processed

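Total RNA of each tissue was pooled, and the authors made poly(A) libraries with a TruSeq kit, sequenced single-end reads of 75 bp and mapped them to NCBI37/mm9 with Bowtie 0.12.7. The deposited RPKM values, which the authors computed with ERANGE from exon models, are rounded to 2 decimals. ERANGE options and the treatment of reads that map to several places are not given in the sources used here. The table also holds a listed gene length and the authors' CvP/Epi ratio, which was not used.

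The 10 genes and the 20 gene lists were chosen with earlier results of these data known. All members are named, with the other *Slc2a* and *Slc5a* genes and both Kir6 pore genes, the 3 genes of highest RPKM of each other list, and genes past 3-fold with an RPKM of at least 10. Genes outside this rule were also chosen after values were seen. They are *Khk*, *Ldhb*, *Eno2*, *Adipoq*, *Plin1*, *Lep*, *Aqp5*, *Rgs5*, *Pdgfrb*, *Myh11*, *Cspg4*, *Acta2*, *Slc1a3*, *Itpr3*, *Krt5*, *Ivl*, *Dsg3* and others marked where they appear. The promoter motifs and the range of CvP RPKM from 0.4 to 0.7 were chosen in the same way.

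The 163 rows of 0.1 kb gave the depth, since 1 read is a fixed step in RPKM there, and 98.2% (CvP) and 98.4% (Epi) of low values in short rows came out as whole reads, within 0.15. Reads per gene were estimated from depth and the listed length or, where shorter, that of the longest coding GENCODE M1 transcript. This makes intervals wider, not narrower, for genes with a longer listed model. In short rows with such a model, low values came out as whole reads in 62.2% (CvP) and 56.25% (Epi) by the listed length. By the transcript length the shares were 32.5% and 50%, each over 32 to 45 rows. The tolerance of 0.15 also lets some values that are not whole reads count as whole, and their share was not estimated. Ratios were given exact Clopper-Pearson intervals (95%), and RPKM values exact Poisson intervals. For a gene with 0 reads in the Epi library, a floor of 3 reads was used. Scripts were tested on simulated data. The alternatives were pseudocounts, filters, folds, scalings and the length behind the reads. Calculations used Python 3.11.15, numpy 2.4.6, pandas 2.3.3, scipy 1.17.1 and matplotlib 3.10.9. Some results on genes of these lists are not reported here.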

Additional observations from a re-analysis of the deposited data

How the results depend on the processing

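No paired analysis was possible because there is a single pooled library for either tissue. Intervals cover counting error only, and differences between mice or dissections cannot be seen. Summing rows of a repeated symbol was not run, since each member has 1 row. The number of members past 2-fold in the direction of the CvP was 2. It was 1 with a pseudocount of 1, after division by the median ratio or by the trimmed mean, with an RPKM of at least 3 and at 3-fold. It was 4 without the filter and after rescaling to a common sum. The rescaling was done before the filter, which then let 7 members pass instead of 4, so scaling and filter changed together. In the direction of the Epi the number of members was 0 under each of these settings. The median log2 ratio of the members, 0.91, was 0.64 with a pseudocount of 1. It was 0.51 after division by the median ratio and 0.51 by the trimmed mean ratio. After rescaling it was 1.48, over the 7 members that then passed the filter. It was 0.62 without the filter and 0.66 with an RPKM of at least 3. The ratio of *Slc5a1*, 1.05, turned to 0.80 under the median scaling and 0.797 under the trimmed mean scaling, and the median of the glycolysis list, 0.02, to -0.37 and -0.38. Per kilobase of transcript, an alternative chosen after the values were seen, *Slc2a1* stood at 1.12 times *Slc5a1* in the Epi and 1.70 times in the CvP. The cause was not tested, beyond these settings themselves.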

Other observations

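The other tissues that the samples could hold differed between the libraries in both directions. Of the skeletal muscle genes, *Acta1* was at RPKM 0.86 in the papillae against 12.9 in the Epi, *Tnni2* 2.53 and 12.3, and *Ckm* 0.67 and 10.6. Salivary gland genes were led by *Lipf* (1.96 and 313) and *Amy1* (0.85 and 80.5), while *Pigr* (12.0 and 0.54) and *Aqp5* (6.09 and 0.69) lay the other way. Of the 8 salivary gland genes that reached an RPKM of 1, 5 were past 2-fold toward the Epi, 2 toward the CvP and 1 lay between. Of the immune genes, *Lyz2* had 132 and 0.43, *S100a8* 22.1 and 1.37, and *Cd14* 20.4 and 0.94. Among nerve and glia genes *Uchl1* had 15.0 in the CvP and 0 in the Epi, *Mbp* 10.3 and 8.94, and *Nefl* 2.32 and 0.

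Endothelial genes did not move as one. *Vwf* was at RPKM 4.45 in the papillae against 0.09 in the Epi and *Tek* 2.49 and 0.07, whereas *Pecam1* had 0.28 and 0.12 and *Cdh5* 0.02 and 0.06. *Alas2*, of the red blood cell list, had 1.37 and 0.22, but the globin genes *Hba-a1* and *Hba-a2* were below 0.8 in both libraries. In the mural list *Notch3* had 24.5 and 18.3, *Des* 0.12 and 2.25 and *Tagln* 1.75 and 1.22. *Cdh5* was named after its values were seen. *Ddc* and *Nefm*, in the report, were also named for their value of 0.

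The keratinized epithelium list summed to RPKM 34203 in the papillae against 88385, and *Krt76* (217 and 5649), *Rptn* (1468 and 5290), *Lor* (1052 and 4379), *Krt14* (295 and 1140) and *Dsg1a* (82.1 and 326) were more than 3-fold higher in the Epi. In the taste list, *Entpd2* had 54.8 and 4.53 and *Pkd1l3* 47.6 and 0.40. *Dsg3* of the first list and *Slc1a3* of the second lay in the opposite direction, as given in the report.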
